A study of Mus musculus with 20 samples.

Results

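The extra chromosome 16 segment that is common to Dp3Tyb and Ts1Rhr mice was examined by setting all 10 mutant hearts of both strains against all 10 wild-type (WT) hearts of the series. Every one of the 20 libraries of the series was used. Whole hearts were taken from mouse embryos at E13.5, before septation is complete, on a C57BL/6J background. There were 5 Dp3Tyb hearts, genotype Dp(16Mir802-Zbtb21)3TybEmcf, and 5 WT littermates labelled wt_d. There were also 5 Ts1Rhr hearts, genotype Dp(16Cbr1-Fam3b)1Rhr, and 5 WT littermates labelled wt_t. No treatment was given. Each WT label gives just the strain's first letter, and these hearts were read as that strain's littermates. Members were taken by listing number, which alternates between WT (odd) and mutant (even), and each mutant heart was compared with the WT heart listed just before it. This gave 10 neighbour pairs, 5 per strain, and pairs 1 to 5 are Dp3Tyb pairs and pairs 6 to 10 are Ts1Rhr pairs. Nothing in the labels says that neighbours shared a litter or a day, and even listing position and mutant genotype cannot be told apart. Both strains are models of Down syndrome. The shorter Ts1Rhr duplication lies within that of Dp3Tyb, and the study describes heart defects in Dp3Tyb embryos but not in Ts1Rhr embryos, although defects are mentioned in the labels of 2 of the 5 Ts1Rhr hearts (replicates 1 and 2). The comparison therefore asks which expression differences the 2 strains share, whether or not defects arise.

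The common segment carries Dyrk1a, which encodes a serine/threonine kinase that phosphorylates cyclin D and p27 and, through the LIN52 subunit, promotes assembly of the DREAM complex. DREAM, built around the retinoblastoma-related proteins p107 and p130, represses cell cycle genes in resting cells. Genes of S phase are mainly controlled through E2F sites in their promoters, and genes of G2 and mitosis through a motif called the cell cycle genes homology region (CHR). The embryonic heart at this age grows mainly by division of cardiomyocytes and of the endothelial, epicardial and mesenchymal cells around them.

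Values are reads divided by a library factor, called normalised values here. The libraries held 6.60 to 19.6 M reads (mega, M; median 16.9), and the mutant library held more reads than its neighbour in 5 of 10 pairs. WT libraries held 6.60 to 19.35 M and mutant libraries 12.47 to 19.63 M, and the paired difference averaged 1.86 M (-1.29 to 7.29). Mitochondrially encoded transcripts took 4.85 to 19.5% of the reads, and the mutant share was higher in 5 of 10 pairs. Mutant shares reached 15.45%, and the mutant-minus-WT difference averaged -1.22 percentage points (-11.1 to 2.63). The WT libraries of pairs 5 and 9 held the fewest reads (6.60 and 9.50 M) and had the highest shares (19.5 and 17.2%). Both hearts of every pair were of the same sex by their sex-linked transcripts. Deviations from the group mean correlated between neighbours at -0.161 to 0.655 (median 0.091) and passed 0.1 in 5 of 10 pairs, against a median of 0.0114 over the 40 other WT and mutant combinations within strains. The listing was therefore not established as a pairing, and the counts of called genes are also given from a fit without the pair term. Cardiac troponin T (Tnnt2) was at 29840 to 86245 in all hearts, and it marks cardiomyocytes. The lung and foregut marker Nkx2-1 was at 0 to 56.2 in WT and 0 to 49.9 in mutant hearts, and it was higher in the mutant in 4 of 10 pairs. In whole hearts, fewer cells of a type and less RNA per cell cannot be told apart.

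The duplicated genes were taken first, as a check of the labels. Of the 39 protein-coding genes in 3 copies in Dp3Tyb, 31 are in 3 copies in Ts1Rhr too and 8 are not. Of the 31, 20 passed the filter on low values (at least 10 in at least 10 of 20 libraries) and all 20 were higher in mutant hearts, with a median log2 difference of 0.52. Of these 20, 17 were called, which means an adjusted p-value under 0.05 in limma with a term for the pair, and none were lower. Over all 14759 genes tested, 0.346% were called higher. Dyrk1a (ENSMUSG00000022897; GRCm38 chromosome 16, 94569947 to 94695519) had normalised values of 1692 to 2339 in WT hearts (median 1875) and of 2403 to 3196 in mutant hearts (median 2514). The groups did not overlap. The log2 difference was 0.42 ± 0.04 (SE, 10 pairs, adjusted p = 7.20e-05 in limma), a 1.34-fold level, and the mutant was higher in 10 of 10 pairs (exact sign-flip permutation, 2-sided p = 0.00195, the smallest that 10 pairs can give). Bace2, which encodes an aspartyl protease, showed the largest difference of the called duplicated genes, at 0.77 ± 0.04 (1.71-fold, adjusted p = 1.90e-07). Ttc3, encoding a ubiquitin ligase, showed the smallest, at 0.37 ± 0.05 (adjusted p = 8.17e-04). Ttc3 was not called without the pair term (adjusted p = 0.0597), and neither were Sh3bgr (0.066) and Kcnj15 (0.109). Kcnj15 lost its call in 6 of the 10 fits that leave out a pair, and Ripply3 did so in 1. Of the 3 tested genes that were not called, Erg, a transcription factor of endothelium, gave 0.28 ± 0.07 (adjusted p = 0.0869), Lca5l gave 0.52 ± 0.13 (adjusted p = 0.0886), and Sim2 gave 0.71 ± 0.94 (adjusted p = 0.753). Sim2 was higher in Dp3Tyb (2.42 ± 1.12) but lower in Ts1Rhr (-0.99 ± 1.12), whereas the other 19 of the 20 were higher in both strains. The plot of duplicated genes shows that the strain values lay close together for most of these genes.

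**Figure D1:**
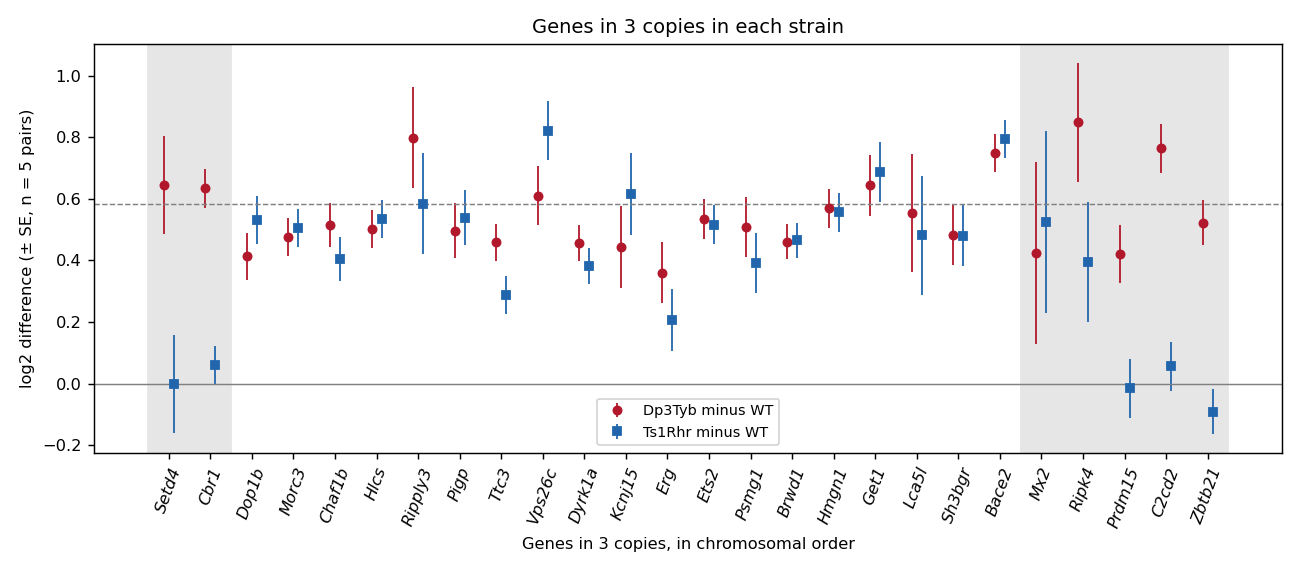
Log2 difference from WT (y axis, ± SE, 5 pairs each) of the tested genes in 3 copies, in chromosomal order on the x axis, for Dp3Tyb (red circles) and Ts1Rhr (blue squares). The dashed line marks 1.5-fold, grey bands mark genes in 3 copies in Dp3Tyb alone, and Sim2, with an SE of 0.94 in the fit over both strains, is not drawn.

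The 8 genes in 3 copies only in Dp3Tyb served as a contrast. Of these, 7 were tested, and their median log2 difference was 0.64 in Dp3Tyb and 0.06 in Ts1Rhr. None was called over both strains. C2cd2 gave 0.76 ± 0.08 in Dp3Tyb and 0.06 ± 0.08 in Ts1Rhr. A higher value in Ts1Rhr was given by Mx2, an interferon-induced GTPase, with 0.42 ± 0.30 in Dp3Tyb and 0.52 ± 0.30 in Ts1Rhr. Ripk4, a kinase gene of epithelia, gave 0.85 ± 0.19 in Dp3Tyb and 0.39 ± 0.19 in Ts1Rhr.

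Outside the duplicated region, 34 genes were called higher and 41 lower in mutant hearts, so that 92 genes (0.623% of those tested) were called in all, 51 higher and 41 lower (0.278%). Most of these differences were small. The median size of a difference among the 75 was 0.28 on the log2 scale, 38 of the 75 were under 0.3, and 2 exceeded 1. All 75 had the same sign in at least 9 of 10 pairs and 60 in all 10, a property that the test itself favours. The number of calls depended on the model and on the pairs included. Without the pair term, limma called 42 genes (0.285%), of which 40 were among the 92, and outside the region 17 were higher and 11 lower. DESeq2 without the term called 173 genes, 68 of them among the 92, and limma with the pair as a random effect called 232, 77 of them among the 92. Leaving out pair 2, 3, 8, 6, 5, 7, 10 or 4 gave 26, 34, 36, 38, 43, 44, 48 and 60 calls, and leaving out pair 1 or 9 gave 80 and 97. Without the 4 pairs with a library over 10% mitochondrial reads, 30 genes were called. These were pair 5 of Dp3Tyb and pairs 6, 7 and 9 of Ts1Rhr, so the fits without them rest mainly on Dp3Tyb pairs. With TMM factors in place of the deposited scaling, 48 genes were called higher and 23 lower.

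A group of 11 genes outside the region kept the call in all 10 fits that leave out a pair, and these 11 were also called without the pair term (adjusted p from 3.16e-05 to 0.00714) and by edgeR with it. DESeq2 called 10 of the 11 and gave no adjusted p for Clec4g. Of the 11, 8 were higher in mutant hearts (Mal, Entpd1, Clec4g, Gstm1, Ecm1, Adh6b, Itgav and Ctsk) and 3 were lower (Rec8, Ky and Rfx5). The remaining 64 lost the call in at least 1 of the 10 fits: 11 genes did so in 1 to 5 of the fits and 53 genes in 6 to 10, 5 of them in all 10.

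Mal encodes a proteolipid of apical membranes and myelin (ENSMUSG00000027375; GRCm38 chromosome 2, 127633226 to 127656695). Its normalised values were 42.1 to 73.4 in WT hearts (median 49.1) and 82.6 to 134 in mutant hearts (median 96.0). Every mutant heart was above every WT heart. The log2 difference was 0.96 ± 0.10 (1.94-fold, adjusted p = 1.08e-04 in limma), with 1.08 in Dp3Tyb and 0.84 in Ts1Rhr. Clec4g, a C-type lectin of sinusoidal endothelium (ENSMUSG00000074491; chromosome 8, 3707066 to 3720695), lay at 12.4 to 32.2 in WT (median 22.4) and 38.1 to 60.4 in mutant hearts (median 49.3). Here too the groups were fully separate. Its difference was 1.15 ± 0.15 (2.22-fold, adjusted p = 0.00173), with 1.16 and 1.14 in Dp3Tyb and Ts1Rhr. Entpd1, which encodes the ectonucleotidase CD39 of endothelial and immune cells, was at 361 to 462 in WT and 523 to 632 in mutant hearts. The mutant values again lay wholly above the WT values, at a difference of 0.45 ± 0.06 (1.37-fold, adjusted p = 0.00133) that was 0.45 in each strain.

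Of the metabolic genes of this group, Gstm1, a glutathione transferase, rose from a median of 183 to 263, with some overlap between the groups (log2 difference 0.46 ± 0.06, adjusted p = 0.00185). Adh6b, an alcohol dehydrogenase, was at 29.0 to 47.0 in WT and 48.5 to 79.0 in mutant hearts, without overlap (0.66 ± 0.10, adjusted p = 0.00431). Both have close relatives in the genome, and how reads were divided among these copies is uncertain. Over all tested genes, 20 (0.136%) had WT and mutant groups that did not overlap, and 19 of these were called, 10 of them outside the region.

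Ky, the muscle protein whose loss causes kyphoscoliosis (ENSMUSG00000035606; chromosome 9, 102505755 to 102546247), had the largest decrease of the called genes. It was at 81.4 to 180 in WT hearts (median 112) and 44.3 to 78.3 in mutant hearts (median 54.6). The groups did not overlap, and the log2 difference was -1.05 ± 0.12 (0.482-fold, adjusted p = 2.91e-04), with -1.21 in Dp3Tyb and -0.90 in Ts1Rhr. Rec8, a cohesin subunit of meiosis (ENSMUSG00000002324; chromosome 14, 55618002 to 55625395), was at 153 to 242 in WT hearts (median 196) and 104 to 155 in mutant hearts (median 125). Its groups met at the edge, and the difference was -0.64 ± 0.07 (0.640-fold, adjusted p = 1.90e-04). Rfx5, a transcription factor of major histocompatibility complex class II genes, was at 403 to 614 in WT hearts (median 439) and at 296 to 405 in mutant hearts (median 331). It was lower in the mutant in 10 of 10 pairs, by -0.50 ± 0.07 (adjusted p = 0.00238).

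**Figure D2:**
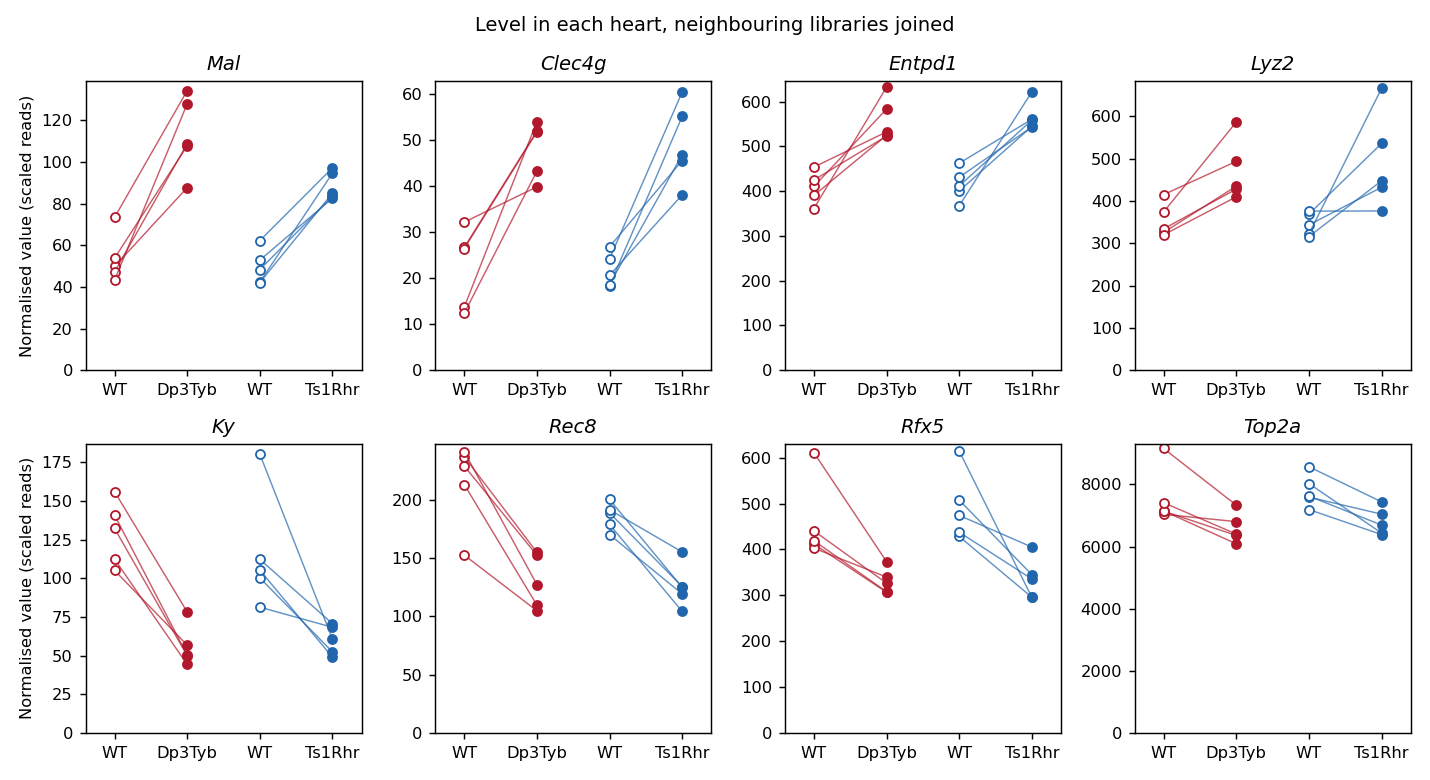
Normalised value (y axis, scaled reads, from 0) of 8 called genes in each heart, with WT as open and mutant hearts as filled circles and neighbours joined by lines (red, Dp3Tyb cohort; blue, Ts1Rhr cohort). Mal, Clec4g and Entpd1 are higher in all mutant hearts than in the WT hearts, Ky is lower in all of them, and the groups overlap for Lyz2, Rec8, Rfx5 and Top2a.

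Rfx5, Ctsk and Ecm1 lie close together on chromosome 3 (GRCm38, 94950689 to 95739876), an observation made after their values were seen. Of the 27 tested genes of that interval these 3 were called, Rfx5 lower and the others higher, and the median log2 difference of the 27 was 0.03. Chromosome 3 held 8 of the 75 called genes outside the region, or 1.05% of its 764 tested genes, against 0.509% of all genes tested outside the region and 1.03% on chromosome 1.

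The other called genes with large increases were expressed at low to moderate levels, and each lost its call in at least 4 of the 10 fits that leave out a pair. Rhoh, a small GTPase of blood cells, was at 5.43 to 12.5 in WT and 8.04 to 24.7 in mutant hearts (0.98 ± 0.20, adjusted p = 0.0442). Snx20, a sorting nexin of blood cells, was at 2.69 to 11.7 in WT and 11.98 to 25.2 in mutant hearts (0.98 ± 0.21, adjusted p = 0.0493). Rhoh lost its call in all 10 fits that leave out a pair and Snx20 in 9, although both were called without the pair term (adjusted p = 0.0338 and 0.0178). The checkpoint receptor gene Vsir (0.50 ± 0.10) lost its call in all 10 such fits, the adhesion receptor gene Adgrg3 (0.50 ± 0.09) in 7, and neither was called without the pair term (adjusted p = 0.211 and 0.123). Car3, a carbonic anhydrase of muscle and fat, gave 0.67 ± 0.12 (adjusted p = 0.0183, 0.214 without the pair term). B3gnt3, a glycosyltransferase, gave 0.64 ± 0.12 (adjusted p = 0.0308, 0.0101 without it). Rnf17, a gene of germ cells, gave 0.53 ± 0.11 (adjusted p = 0.0431, 0.0498 without it). Wscd1 (0.47 ± 0.09) and the kinase gene Cdk18 (0.47 ± 0.09) completed the 15 largest increases among called genes, and neither was called without the pair term (adjusted p = 0.315 and 0.0607). Of the 10 fits that leave out a pair, Car3 lost its call in 4, B3gnt3 in 5, and Rnf17, Wscd1 and Cdk18 in 9 each.

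Among the other called decreases, Meioc, which is needed to sustain meiosis in germ cells, was at 24.95 to 67.5 in WT hearts (median 38.1) and 11.5 to 26.4 in mutant hearts (median 18.95). The groups overlapped slightly, with a difference of -0.95 ± 0.17 (0.519-fold, adjusted p = 0.0190). Lrp2bp, a binding partner of the receptor megalin, gave -0.85 ± 0.15 (adjusted p = 0.0167). Ddc, the decarboxylase that makes dopamine and serotonin, was at 667 to 1174 in WT and 483 to 632 in mutant hearts, without overlap (-0.47 ± 0.08, adjusted p = 0.0124). Ucp2, an uncoupling protein of the inner mitochondrial membrane, gave -0.32 ± 0.06 (adjusted p = 0.0185). These 4 were also called without the pair term (adjusted p = 0.00556, 0.0486, 0.0177 and 0.0177), and each lost its call in 1 to 3 of the 10 fits that leave out a pair. Of the 15 largest decreases among called genes, the remaining 8 were not called without it. One of them, Cenpf, is described with the genes of cell division, and the other 7 were the zinc finger gene Zbtb20 (-0.43 ± 0.07), Mybl1, a transcription factor of male meiosis (-0.41 ± 0.07), Hap1 (-0.41 ± 0.09), the helicase gene Zgrf1 (-0.31 ± 0.06), and 3 genes of centrioles or centrosomes, Hyls1, Cep350 and Cep57l1 (-0.27 to -0.28). The adjusted p-values of these 7 without the pair term were 0.066 to 0.395, and of the 10 fits that leave out a pair they lost the call in 1 (Zbtb20) to 9 (Hap1 and Cep57l1).

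Genes of cell division were mostly lower in mutant hearts. Of the 60 tested genes of S phase and replication 58 were lower, and of the 64 tested genes of G2 and M phase 59 were lower. The median log2 differences were -0.14 and -0.15, against 0.0014 over all genes tested, and both lists had a negative median in 10 of 10 pairs. Within strains the medians were -0.14 and -0.15 in Dp3Tyb and -0.15 and -0.14 in Ts1Rhr. Few single genes passed the adjusted test: 3 of the S phase list (E2f8, Brca1 and Dtl) and 6 of the G2 and M list (Top2a, Aspm, Cenpf, Bub1, Nusap1 and Ncapg) were called lower, against 0.278% of all genes tested, and none higher. At an unadjusted p under 0.05, 40 and 47 genes were lower and none higher, against 7.87% lower and 7.27% higher over all genes tested. Genes lower in all 10 pairs numbered 9 in the S phase list and 15 in the G2 and M list, against 1.09% of all genes tested. Without the pair term, 1 gene of the S phase list (Dtl) and none of the G2 and M list was called (against 0.0745% called lower over all genes tested), and 29 and 26 were lower at an unadjusted p under 0.05, against 4.24% of all genes tested. Without the 4 pairs with a library over 10% mitochondrial reads no gene of either list was called, the medians were -0.11 and -0.12, and 24 and 37 genes were lower at an unadjusted p under 0.05, against 683 of all 14759 genes tested. In the 10 fits that leave out a pair, 0 to 4 genes of the S phase list were called (0 in 7 of the fits) and 0 to 6 of the G2 and M list, against 3 to 43 called lower over all genes, and the medians were -0.16 to -0.13 for both lists. With TMM factors 1 and 2 were called (23 called lower over all genes), and the medians were -0.14 and -0.14. Other fits called more genes lower over the whole table, where limma with the pair term called 41, and gave other counts for the S phase and the G2 and M list. DESeq2 with the pair term called 14 and 16 (138 over all genes), and DESeq2 without it 8 and 4 (75 over all genes). The pair as a random effect gave 15 and 7 (108 over all genes), the mitochondrial share as a covariate 5 and 16 (70 over all genes), and array weights 17 and 17 (164 over all genes).

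The summed normalised value of the S phase list was 51021 to 59154 in WT hearts and 47806 to 53097 in mutant hearts, and that of the G2 and M list was 89756 to 134493 and 82254 to 107417. For both lists the sums overlapped between groups, and the mutant was lower than its neighbour in 10 of 10 pairs. Top2a, the topoisomerase that untangles sister chromatids (ENSMUSG00000020914; chromosome 11, 98992947 to 99024199), was at 7038 to 9157 in WT (median 7503) and 6089 to 7441 in mutant hearts (median 6564). The difference was -0.20 ± 0.04 (0.872-fold, adjusted p = 0.0245, and 0.147 without the pair term). Aspm, a protein of spindle poles, was at 1127 to 2152 in WT and 1027 to 1629 in mutant hearts, so that the groups overlapped widely although the mutant was lower in 10 of 10 pairs (-0.26 ± 0.04, adjusted p = 0.0128, and 0.488 without the pair term). Cenpf, a protein of kinetochores, ranged from 2343 to 5573 in WT and from 2123 to 3877 in mutant hearts (-0.33 ± 0.07, adjusted p = 0.0492, and 0.556 without the pair term). Of the 10 fits that leave out a pair, Top2a lost its call in 6, Aspm in 1 and Cenpf in 8. The spindle checkpoint kinase gene Bub1 (-0.19 ± 0.04), the spindle protein gene Nusap1 (-0.24 ± 0.05) and the condensin gene Ncapg (-0.17 ± 0.04) had adjusted p-values of 0.0446, 0.0492 and 0.0416. Each lost its call in 8 or 9 of the 10 fits that leave out a pair and had 0.134, 0.618 and 0.134 without the pair term. In S phase, E2f8, an E2F repressor, gave -0.26 ± 0.05 (adjusted p = 0.0493), Brca1, a DNA repair gene, gave -0.23 ± 0.05 (0.0398), and Dtl, a ubiquitin ligase subunit for replication licensing, gave -0.18 ± 0.04 (0.0442). These 3 lost their calls in 8, 7 and 9 of the fits that leave out a pair, and Dtl alone was called without the pair term (adjusted p = 0.0179).

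Promoters were examined for the motifs named above, because most genes of these lists were lower. The window ran from 250 bases before to 50 bases after the transcript start (RefSeq, GRCm38.p6; first start listed per gene), and both strands were searched. E2F sites were taken as TTTCCCGC, TTTGGCGC, TTTCGCGC or TTTGCCGC, and the CHR as TTTGAA or TTCGAA, of which the latter reads the same on both strands. A CHR match was held by 39 of the 54 G2 and M promoters in the table (72.2%), 10 of the 48 S phase promoters (20.8%), and 13.6% of the 10831 promoters of tested genes (19.4% of all 27025 promoters). An E2F match was held by 18 of the 48 S phase promoters (37.5%), 4 of the 54 G2 and M promoters (7.41%), and 4.14% of those of tested genes (2.32% of all). Of the 41 genes called lower outside the region 35 had a promoter in the table, of which 12 (34.3%) held a CHR match and 7 (20%) an E2F match. Of the 34 genes called higher 25 had one, of which 1 (4.0%) held a CHR match and 1 an E2F match. The E-box CACGTG was held by 1 promoter of each group, against 9.97% of those of tested genes and 7.24% of all. A match describes letters and not a bound site. The 120 bases just before the start are printed for 6 called genes, which were chosen after their matches were known, 4 with a CHR and 2 with an E2F match within these bases (Ncapg and Ncapg2 also held an E2F match elsewhere in the window), in lower case with the matches in capitals. Ncapg2, a condensin II subunit (-0.19 ± 0.04, adjusted p = 0.0416), and Rbl1, the gene of p107, are on neither division list.
Top2a, chr11:99024190-99024309, minus strand: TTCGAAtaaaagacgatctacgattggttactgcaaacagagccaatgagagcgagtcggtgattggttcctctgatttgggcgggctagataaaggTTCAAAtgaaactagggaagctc
Ncapg, chr5:45669805-45669924, plus strand: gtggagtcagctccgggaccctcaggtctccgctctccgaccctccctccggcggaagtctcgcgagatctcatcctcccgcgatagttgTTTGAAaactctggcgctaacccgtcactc
Ncapg2, chr12:116405316-116405435, plus strand: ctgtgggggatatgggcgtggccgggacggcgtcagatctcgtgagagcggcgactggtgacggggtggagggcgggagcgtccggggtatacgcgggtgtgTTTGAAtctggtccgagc
E2f8, chr7:48881597-48881716, minus strand: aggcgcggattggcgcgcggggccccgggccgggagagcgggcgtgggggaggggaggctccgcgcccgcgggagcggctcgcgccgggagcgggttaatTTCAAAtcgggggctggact
Rbl1, chr2:157204535-157204654, minus strand: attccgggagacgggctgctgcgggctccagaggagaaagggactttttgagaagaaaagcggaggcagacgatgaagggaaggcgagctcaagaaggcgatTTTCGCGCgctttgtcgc
Dtl, chr1:191575545-191575664, minus strand: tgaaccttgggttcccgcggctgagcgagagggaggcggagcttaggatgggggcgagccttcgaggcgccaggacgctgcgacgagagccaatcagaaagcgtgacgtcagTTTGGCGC

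The kinase and its cell cycle partners were taken as a list of 38 tested genes around DYRK1A, calcineurin and NFAT, p107 and DREAM. Of these, 1 was called higher (Dyrk1a itself) and 2 lower (Rbl1 and Cdkn1b), against 0.346% and 0.278% of all genes tested, and the median difference was -0.03, negative in 9 of 10 pairs. Rbl1 was at 833 to 1025 in WT hearts (median 901) and 704 to 833 in mutant hearts (median 772), a difference of -0.22 ± 0.04 (0.858-fold, adjusted p = 0.0224, and 0.0179 without the pair term). Cdkn1b, the gene of the cell cycle inhibitor p27, was at 933 to 1486 in WT and 806 to 1131 in mutant hearts, a difference of -0.25 ± 0.05 (adjusted p = 0.0487, and 0.247 without the pair term). Its call was lost in all 10 fits that leave out a pair, and that of Rbl1 in 7. Of the other DREAM and MuvB genes, Lin9 gave -0.21 ± 0.06 (adjusted p = 0.123), Mybl2 gave -0.19 ± 0.05 (0.125), Lin52 gave -0.09 ± 0.08 (0.605) and Lin37 gave -0.03 ± 0.10 (0.909). Among the retinoblastoma relatives, Rbl2 gave -0.08 ± 0.04 (0.328) and Rb1 gave -0.09 ± 0.05 (0.440). The cyclin D genes, whose proteins are DYRK1A substrates, gave -0.10 ± 0.04 for Ccnd1 (0.262), 0.01 ± 0.03 for Ccnd2 (0.908) and 0.12 ± 0.07 for Ccnd3 (0.405). Of the calcineurin inhibitor genes, Rcan1, a target of NFAT outside the duplicated segment, gave -0.02 ± 0.06 (adjusted p = 0.876). Nfatc1, the NFAT gene of endocardial cushions and valves, gave 0.02 ± 0.06 (0.882).

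Of 49 tested genes of the extracellular matrix and mesenchyme, 4 were called, all higher (Ecm1, Itgav, Ctsk and Mmp2), against 0.346% called higher over all genes tested. In all, 43 of the 49 were higher, the median log2 difference was 0.10, and the list median was positive in 6 of 10 pairs. At an unadjusted p under 0.05, 17 were higher and none lower, against 7.27% higher over all genes tested. Without the pair term 3 were called, against 0.21% called higher over all genes tested, and 9 were higher at an unadjusted p under 0.05, against 4.39%. Without the 4 pairs with a library over 10% mitochondrial reads 1 was called (24 called higher over all genes), 10 were higher at an unadjusted p under 0.05 (627 over all genes), and the median was 0.09. Ecm1, a secreted matrix protein, was at 507 to 701 in WT hearts (median 541) and 635 to 722 in mutant hearts (median 692), with overlap (0.31 ± 0.04, adjusted p = 0.00240). Itgav, the integrin αV subunit, was at 1766 to 2235 in WT and 2350 to 2586 in mutant hearts, and every mutant value was above every WT value (0.24 ± 0.04, 1.18-fold, adjusted p = 0.0116). Ctsk, the collagen-degrading cathepsin K, was at 142 to 204 in WT and 207 to 270 in mutant hearts, also without overlap (0.39 ± 0.06, 1.31-fold, adjusted p = 0.0122). Mmp2, a gelatinase, gave 0.21 ± 0.04 (adjusted p = 0.0487, and 0.200 without the pair term).

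Macrophage markers were mostly higher in mutant hearts. Of 22 markers 20 were tested, 19 were higher, and 2 were called (Lyz2 and Lyve1, against 0.346% called higher over all genes tested), with a median log2 difference of 0.26 that was 0.29 in Dp3Tyb and 0.25 in Ts1Rhr. At an unadjusted p under 0.05, 13 were higher and none lower, against 7.27% higher over all genes tested, and 11 were higher without the pair term, against 4.39%. The list median was higher in 8 of 10 pairs, and the summed value was 2408 to 3515 in WT (median 2946) and 2862 to 4018 in mutant hearts (median 3695). Csf1r, Cd68, Adgre1, C1qa, Cx3cr1 and Ptprc, which define these cells, were above 0 in every library. Csf1r, the receptor for macrophage growth factor, was at 285 to 541 in WT and 365 to 645 in mutant hearts, whereas Cd68 was higher in the mutant in only 5 of 10 pairs. Lyz2, encoding lysozyme, was at 316 to 415 in WT (median 339) and 376 to 666 in mutant hearts (median 441), with overlap (0.44 ± 0.08, adjusted p = 0.0167, and 0.0283 without the pair term). Lysozyme has a near-identical second gene, so its reads may be divided. Lyve1, a hyaluronan receptor of tissue macrophages and of lymphatic endothelium, was at 98.0 to 196 in WT and 178 to 319 in mutant hearts (0.63 ± 0.12, adjusted p = 0.0294, and 0.0177 without the pair term). Lyz2 lost its call in 2 and Lyve1 in 5 of the 10 fits that leave out a pair. Without the 4 pairs with a library over 10% mitochondrial reads, none of the macrophage genes was called and the median was 0.21. Rhoh, Vsir and Snx20, which are also expressed in blood cells, were higher in the mutant in 10 of 10 pairs, including pairs 1 and 6, where the macrophage median was -0.19 and -0.03. The part of macrophage content in those results was not tested.

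**Figure D3:**
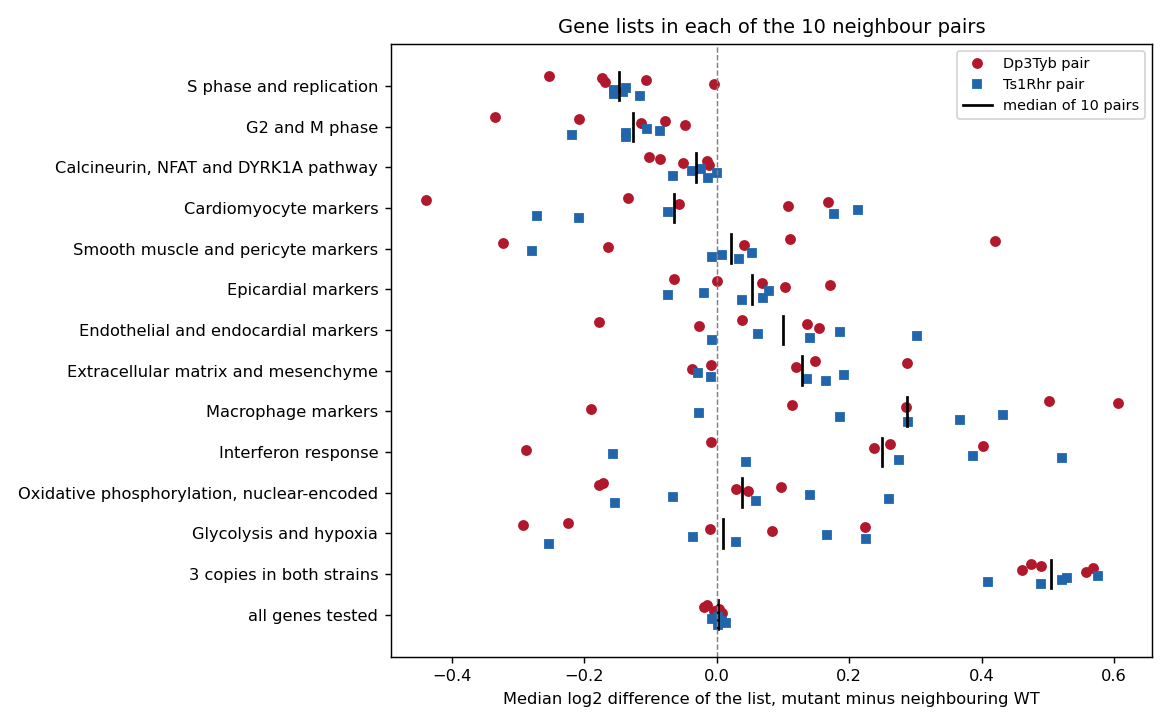
Median log2 difference of each gene list (x axis, mutant minus neighbouring WT) in the 5 Dp3Tyb pairs (red circles) and the 5 Ts1Rhr pairs (blue squares), with a bar at the median of the 10 pairs. The S phase and the G2 and M lists lie below 0 in all 10 pairs, macrophage markers lie above 0 in 8, and cardiomyocyte markers fall on both sides.

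The other cell type and response lists held 1 called gene or none in the limma fit used throughout. In the interferon response 28 of 37 tested genes were higher and 1 was called (against 0.346% called higher over all genes tested), H2-D1, a class I histocompatibility gene (0.36 ± 0.08, adjusted p = 0.0492, and 0.365 without the pair term), which has close relatives that may share its reads and which lost its call in 9 of the 10 fits that leave out a pair. At an unadjusted p under 0.05, 8 were higher and none lower, against 7.27% higher over all genes tested. The list median of 0.17 was positive in 7 of 10 pairs. Of the 17 tested markers of neural crest, Schwann cells and neurons, Ddc was called lower (1 of 17, against 0.278% over all genes tested) and the median over pairs ran from -1.12 to 1.58. The median of this list was 0.55 in Dp3Tyb and -0.14 in Ts1Rhr. None of the 30 tested cardiomyocyte markers was called (median -0.05; 11 higher and 19 lower), with Ttn at -0.34 ± 0.10 (adjusted p = 0.154) and Ryr2 at -0.20 ± 0.07 (0.185). None of the 22 tested endothelial markers was called (median 0.09). At an unadjusted p under 0.05, 6 were higher and 1 lower, against 7.27% and 7.87% over all genes tested. The smallest p-values were those of Erg, itself in 3 copies, and of Ramp2 (0.17 ± 0.05, adjusted p = 0.115). Array weights called 3 endothelial markers higher (164 over all genes). DESeq2 with the pair term, the pair as a random effect and the mitochondrial covariate each called 1 higher (85 to 124 over all genes). The fit without the pairs with a library over 10% mitochondrial reads also called 1 higher (24 over all genes). None of the 14 epicardial markers was called (median 0.04), led by Tcf21 (0.25 ± 0.06, 0.0924) and Muc16 (-0.22 ± 0.11, 0.364), nor of the 12 markers of smooth muscle and pericytes (-0.04), led by Tagln (0.18 ± 0.04, 0.0720) and Myocd (-0.14 ± 0.04, 0.176).

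The lists of energy metabolism held no called gene, and Ucp2, described above, is on none of them. Of 92 listed nuclear genes of oxidative phosphorylation, 77 were matched by name and tested, and the rest were not examined. Among the 77 tested, 40 were higher and 37 lower (median 0.01, -0.05 in Dp3Tyb and 0.03 in Ts1Rhr), and none reached an unadjusted p under 0.05. The smallest p-values were those of Ndufs6 (-0.17 ± 0.08, adjusted p = 0.367) and Cox8a (0.14 ± 0.07, 0.392). The 13 mitochondrially encoded messengers had a median of -0.19, negative in 5 of 10 pairs, with 0.03 in Dp3Tyb and -0.44 in Ts1Rhr. The median was 0.0049 without pair 9, 0.03 without the 4 pairs with a library over 10% mitochondrial reads and 0.04 with array weights. Of these messengers, mt-Nd3 gave -0.18 ± 0.10 (adjusted p = 0.392) and mt-Co2 gave -0.45 ± 0.28 (0.486). In pair 9, where the WT library took 17.2% and the mutant library 6.12% of its reads from these genes, the list median was -2.16. The 31 tested genes of glycolysis and hypoxia (median -0.0038) were led by P4ha1 (0.12 ± 0.04, adjusted p = 0.177) and Pgam1 (0.11 ± 0.05, 0.374), and the 19 immediate early genes (median 0.04) by Klf4 (0.14 ± 0.06, 0.270) and Egr3 (-0.32 ± 0.20, 0.47).

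In the limma fit used throughout, with the pair term, no marker of the tissues next to the heart or of red cells was called. Of the 11 tested lung and foregut markers 7 were higher and 4 lower, the list median differed between pairs from -4.70 to 5.13, and 5 pairs were positive. The strains went opposite ways, with a list median of 1.86 in Dp3Tyb and -1.63 in Ts1Rhr. In both strains 1 of these markers was higher and 0 were lower. Etv5 (0.26 ± 0.06, adjusted p = 0.0507) and Id2 (0.04 ± 0.05, 0.698) had the smallest p-values. Etv5 was called in DESeq2 with the pair term (adjusted p = 0.0117, 105 called higher over all genes). Array weights called 1 lung and foregut marker higher and 1 liver marker lower (164 in each direction over all genes). With pseudocount 5, a filter at 50 or the mitochondrial share as a covariate, limma also called 1 lung and foregut marker higher. Leaving out pair 1 or pair 4 did so too (40 to 85 called higher over all genes in these fits). Sftpc, which defines distal lung epithelium, was at 0 in 7 of 10 WT and 8 of 10 mutant libraries. Of 15 liver markers 3 were tested. The summed value of the whole list was 218 to 517 in WT and 269.9 to 639 in mutant hearts, and it was higher in the mutant in 9 of 10 pairs. Ahsg, a plasma protein gene, gave -0.78 ± 0.19 (adjusted p = 0.0870) and was lower in 9 of 10 pairs, and Trf, encoding transferrin, gave 0.29 ± 0.11 (0.215) and was higher in 9 of 10. Of the 16 tested erythroid markers 15 were higher, the median of 0.26 was positive in 5 of 10 pairs, and Hemgn (0.60 ± 0.21, adjusted p = 0.212) and Rhag (0.61 ± 0.24, 0.247) had the smallest p-values.

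Both strains could be read as separate experiments, because they share no library. Each strain was fitted alone over its own 5 pairs. In the Dp3Tyb cohort alone 23 genes were called, 5 of them outside the region, and in the Ts1Rhr cohort alone 1 gene was, which is in the region. Of the 228 genes outside the region with an unadjusted p under 0.01 in Dp3Tyb alone, 214 (93.9%) had the same sign in Ts1Rhr. Of these, 91 also had a p under 0.05 there, against 7.43% of all genes tested, in either direction. Of the 167 such genes of Ts1Rhr, 155 (92.8%) had the same sign in Dp3Tyb, and 73 also had a p under 0.05, against 7.76% of all genes tested. At an unadjusted p under 0.001 the same sign was found for 26 of 27 and for 10 of 11 genes. Over all 14732 tested genes outside the region 63.2% had the same sign in both strains. Spearman's rho between the strain differences was 0.294 and Pearson's r was 0.021. These are descriptions across genes, which are not independent replicates, and the libraries share a normalisation. The plot of genes selected in each strain shows most points in the lower left and upper right, with a few far from the diagonal.

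**Figure D4:**
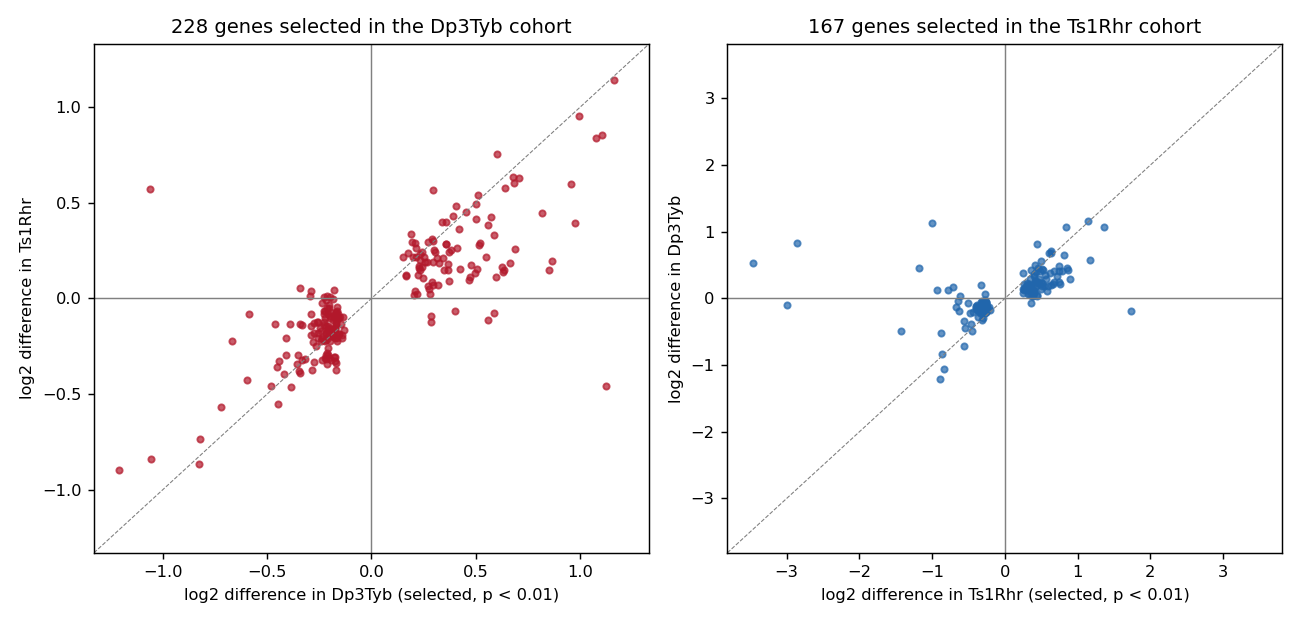
Log2 difference from WT of genes outside the duplicated region, selected at an unadjusted p under 0.01 in Dp3Tyb (left panel, 228 genes, red) or in Ts1Rhr (right panel, 167 genes, blue), with the selecting strain on the x axis and the other strain, in which the genes were not selected, on the y axis. The dashed line marks equal differences, and 214 and 155 genes have the same sign in both strains.

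The difference between the strains was tested directly, as the Dp3Tyb effect minus the Ts1Rhr effect in a limma fit with the pair term. No gene was called (0% of 14759; smallest adjusted p = 0.144), and 344 genes (2.33%) had an unadjusted p under 0.05. This test also missed the 7 tested genes in 3 copies in Dp3Tyb only, whose medians were 0.64 in Dp3Tyb and 0.06 in Ts1Rhr. The absence of calls therefore does not show that the strains were alike. DESeq2 with the pair term called C2cd2 and Cbr1. The fit without the pair term called C2cd2 and Zbtb21, and leaving out pair 9 gave a call for C2cd2. These genes are in 3 copies in Dp3Tyb only.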

How the data were processed

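RNA was sequenced from 20 whole hearts. Per the labels the authors used Trimmomatic 0.36, STAR 2.5.2a, RSEM 1.2.31, DESeq2 and build GRCm38, and annotation and strand use are not given in the sources used here. The authors deposited 1 table of normalised values for 48795 genes, a signal in reads divided by a library factor. In every library all values (100%, tolerance 1e-06) stepped by the worth of 1 read, which gave back whole reads, 6.60 to 19.6 M per library. Reads without molecular identifiers give counting error as a lower limit.

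Genes reaching 10 in no fewer than 10 libraries (14759) were tested on log2(value + 1) with limma 3.58.1 (R 4.3.3, trended, robust), with pair and genotype as terms, 2-sided, Benjamini-Hochberg adjustment and a threshold of 0.05. Differences on this scale understate low genes. edgeR 4.0.16 and DESeq2 1.42.0, on recovered reads, were alternatives. DESeq2 called 243 genes and edgeR 93. Scripts were tested on simulated data. Replicates are separate hearts. Symbols came from GENCODE (44565 of 48795 identifiers, 91.3%) and positions from RefSeq (GRCm38.p6). Named genes were all called duplicated genes, the 15 largest called increases and decreases outside them with 1 sign in at least 9 pairs, called genes of each list (or its 2 smallest p-values) and the DYRK1A list. Members and lists were chosen with earlier results of these data known.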

Additional observations from a re-analysis of the deposited data

Results flagged for a closer look

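Among the 98 groups of 10 libraries examined (the called duplicated genes, the 30 genes with the largest differences, read totals and mitochondrial shares), 6 held a library far from the other 9, and chance flags about 1 in 20 groups. Dp3Tyb replicate 5 was the highest mutant library for Dyrk1a (3196 against 2403 to 2759 in the others), for Ttc3 (11277 against 6892 to 8862) and for Zbtb20 (1340 against 579 to 892). WT replicate 5 of the Dp3Tyb cohort, its neighbour, was the lowest WT library for B3gnt3 (41.1 against 60.3 to 92.9) and the highest for Hyls1 (399 against 281 to 327). These libraries took 15.5% and 19.5% of their reads from mitochondrially encoded genes, and the part of this in the values was not tested. WT replicate 3 of the Ts1Rhr cohort was the lowest WT library for Snx20 (2.69 against 7.48 to 11.7).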

How the results depend on the processing

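The number of genes called, 92, was 42 with no replicate block and a cohort term, 46 with neither, 37 with added sex and cohort terms and no block, 232 with the block as a random effect, 243 in DESeq2 with the replicate block, 173 in DESeq2 with no block, 328 with array weights, 155 with the mitochondrial share as a covariate and 43 with no filter on low values. It was 26 to 97 when a pair was left out, 30 without pairs with over 10% mitochondrial reads, 23 within the Dp3Tyb cohort and 1 within the Ts1Rhr cohort. The cause of these differences was not tested, except that fits to fewer pairs hold fewer samples. Other pseudocounts, a filter at 50, TMM factors and edgeR gave 71 to 94. The number called for the strain difference, 0, was 2 with no replicate block, 2 in DESeq2 with the replicate block, and 0 to 1 when a pair was left out. The median of the genes in 3 copies, 0.48, and the 18 list medians moved by less than 1 SD over pairs in every alternative run, and no named called gene changed sign. Each run shares pairs with the main fit, so this limit could hardly be passed and does not establish stability. The lung and foregut median (0.13, SD 3.14) was 1.86 within Dp3Tyb and -1.63 within Ts1Rhr. That of mitochondrially encoded messengers (-0.19, SD 0.74) was 0.04 with array weights. The pair term was kept as the design although neighbours were not established as paired, since 3 of 10 WT and 2 of 10 mutant libraries correlated best with their own neighbour. Sex could not be fitted beside the pair, because neighbours always had the same sex. The fits with sex or with DESeq2 and no block were added after seeing the data. Precision is limited by 10 pairs and, for genes such as Rhoh, by values near 10.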
